A study of Mus musculus with 6 samples.

Results

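The genes described here set the choice of a muscle cell between division and cell-cycle exit at the G1 restriction point: the D cyclins Ccnd1, Ccnd2 and Ccnd3, their kinases Cdk4 and Cdk6, the inhibitors Cdkn1a, Cdkn1b, Cdkn1c and Cdkn2c, and the retinoblastoma gene Rb1. These 10 genes were taken from 20416 genes, as the probe sets whose platform annotation gives exactly 1 of their symbols. That gave 93 probe sets of the 241576 in the deposited table, between 4 for Cdkn2c and 28 for Rb1. Transcripts were measured on 6 arrays of C2C12, a mouse myoblast line that fuses into myotubes in low serum. The insulin group was 3 cultures of differentiated myotubes kept in 100 nM insulin for 48 h, and the control group was 3 cultures left without it. Per the labels, cells grown in 10% fetal bovine serum were switched to 2% horse serum and used between days 4 and 7, with medium changed every 24 h, and the exposure was meant to make them insulin resistant.

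As background, D cyclins bind CDK4 or CDK6, and these complexes phosphorylate the retinoblastoma protein, which then releases E2F factors that switch on S-phase genes. The CIP/KIP proteins encoded by Cdkn1a (p21), Cdkn1b (p27) and Cdkn1c (p57) bind cyclin-CDK complexes, and the INK4 protein encoded by Cdkn2c (p18) binds CDK4 and CDK6 directly. When myoblasts become myotubes, p21, p57, cyclin D3 and the retinoblastoma protein normally accumulate and cyclin D1 is lost, and the nuclei leave the cycle for good.

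Insulin-treated myotubes had more Ccnd1 and Ccnd2 and less Ccnd3. By their gene values they also had less Cdkn1b and Rb1, and small rises of Cdk6 and Cdkn1c. These further calls depended on the setting. Of 18 alternative settings Rb1 passed in 13, Cdkn1c in 12, Cdkn1b in 10 and Cdk6 in 8. Cdkn1c also turned direction with its brightest probe set. The settings reuse the same arrays, several leave a gene's change as it was, and some were added after seeing the data. Their counts are therefore not independent checks. All 10 genes passed the filter on dim genes. Of them, 4 rose and 3 fell at a limma adjusted p under 0.05, and Cdk4, Cdkn1a and Cdkn2c did not pass. Among the 14291 tested genes 15.9% passed by the same test, 9.56% as rises and 6.35% as falls. Among the 10, the counts were 2 rises and 1 fall without control 2, insulin 2 or insulin 3, 3 and 1 without insulin 1, and 3 and 0 with each gene's brightest probe set. The median change was 0.086 over the 10 genes and -0.0028 over all tested genes, on the log2 scale. The insulin arrays lay wholly above the control arrays for 4 of the 10 genes and wholly below for 4, against 20% and 15.7% of all tested genes. These are arrays of whole cultures, so fewer cells of a type and less RNA per cell cannot be told apart. Replicates are biological ones by their titles, and no batch is given.

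**Figure D1:**
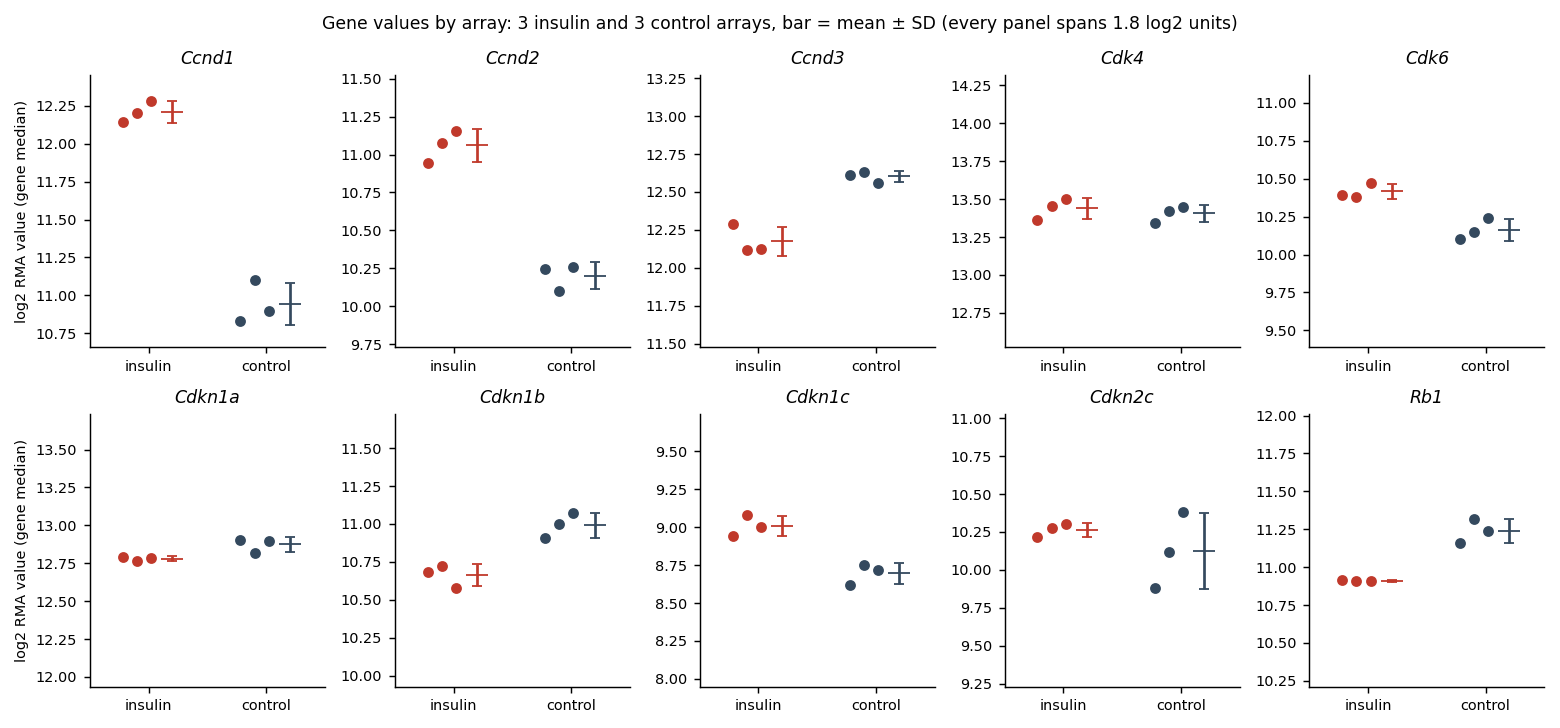
Log2 RMA values of the 10 genes on each array, with 3 insulin arrays (red, left) and 3 control arrays (dark blue, right) per panel; the bar gives mean ± SD, and every panel covers the same span. The groups stand furthest apart for Ccnd1 and Ccnd2, where insulin is higher, and they overlap for Cdk4 and Cdkn2c.

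Ccnd1 encodes cyclin D1, the D cyclin of growth-factor-stimulated myoblasts. Its log2 values were 12.14, 12.21 and 12.28 on the insulin arrays and 10.83, 11.10 and 10.90 on the control arrays. All 3 insulin cultures were higher than every control culture, with a gap many times the spread within either group. Ccnd1 averaged 12.21 ± 0.07 with insulin and 10.94 ± 0.14 without it (SD, n = 3 each). The rise was 1.27 ± 0.09 on the log2 scale (SE), or 2.40-fold (limma adjusted p = 1.90e-04). It ranked 24 among the rises of the 14291 tested genes. All 8 of its probe sets rose, by 0.91 to 1.43, and each of the 8 passed on its own, where 3.95% of the 148468 tested probe sets rose.

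Ccnd2 encodes cyclin D2, a D cyclin of dividing cells that is also induced by growth factors. Its arrays read 10.95, 11.08 and 11.16 with insulin and 10.25, 10.10 and 10.26 without it, in log2. The groups did not overlap. The rise was 0.86 ± 0.08 (SE), or 1.81-fold, and ranked 80 (limma adjusted p = 8.25e-04). Of its 10 probe sets 7 rose by the test on single probe sets and none fell. The dimmest, at a mean log2 value of 6.33, was under the filter on dim probe sets and changed by -0.022. Above the filter, a probe set at a mean of 10.24 changed by only 0.18 with overlapping groups (limma adjusted p = 0.354). Another at 9.26 changed by 0.69 and missed the threshold (0.0744).

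Ccnd3 encodes cyclin D3, the D cyclin that normally builds up in differentiating muscle and binds the retinoblastoma protein there. Its log2 values were 12.29, 12.12 and 12.12 on the insulin arrays and 12.61, 12.63 and 12.56 on the control arrays. Here the insulin cultures were the lower ones, again with no overlap. Ccnd3 averaged 12.17 ± 0.10 with insulin and 12.60 ± 0.04 without it (SD, n = 3 each), a change of -0.43 ± 0.07 (SE) or 0.743-fold (limma adjusted p = 0.00703). It kept its call without any 1 array. The size depended on the probe sets: none of the 5 that passed the filter was called alone, their changes ran from -0.57 to -0.16, and the brightest probe set gave -0.16 (adjusted p = 0.225 in a fit of brightest probe sets). With the mean of its probe sets the fall was -0.27 (adjusted p = 0.0178).

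The 3 D cyclins did not move alike. The log2 difference Ccnd1 minus Ccnd3 was -0.15, 0.090 and 0.16 on the insulin arrays and -1.78, -1.53 and -1.66 on the control arrays. Only the shift of this difference is read here, since levels of different probe sets cannot be compared. It was 1.69 for Ccnd1 against Ccnd3, 1.29 for Ccnd2 against Ccnd3 and 0.41 for Ccnd1 against Ccnd2. Each gave an exact two-sided permutation p of 0.1, which is as low as a comparison of 3 with 3 arrays can go, as did all 7 pairs tested (0.1 after Benjamini-Hochberg adjustment). The brightest probe set of each gene put the shift of Ccnd1 against Ccnd3 at 1.07.

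**Figure D2:**
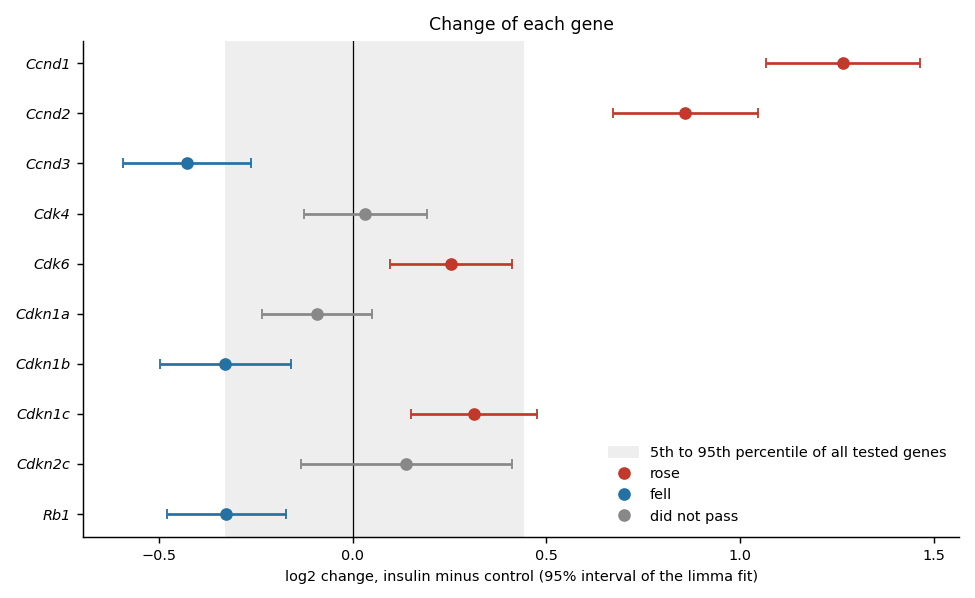
Log2 change of each gene, insulin minus control, with the 95% interval of the limma fit; red points rose, blue points fell and grey points did not pass. The grey band spans the 5th to 95th percentile of all tested genes (-0.33 to 0.44); Ccnd1 and Ccnd2 lie above it, Ccnd3 lies below it, and Cdkn1b and Rb1 sit at its lower edge.

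Cdk4 and Cdk6 encode the catalytic partners of the D cyclins. The RefSeq promoters of both and of Ccnd3 are shown as examples that hold a short motif of a factor known to act on cell-cycle genes. Windows of Cdkn1a and Cdkn2c also held a motif and are not shown. The transcript of 1 such factor, Myc, rose in these cells, and its action on these promoters was not tested. Each shown promoter runs 5′ to 3′ on the plus strand from 250 bases before to 50 bases after an annotated start (GRCm38.p6). Capitals mark CACGTG in the Cdk4 and Cdk6 promoters and the reverse complement of GTAAACA, a FoxO motif, in that of Ccnd3.
Cdk4 chr10:127063285-127063584: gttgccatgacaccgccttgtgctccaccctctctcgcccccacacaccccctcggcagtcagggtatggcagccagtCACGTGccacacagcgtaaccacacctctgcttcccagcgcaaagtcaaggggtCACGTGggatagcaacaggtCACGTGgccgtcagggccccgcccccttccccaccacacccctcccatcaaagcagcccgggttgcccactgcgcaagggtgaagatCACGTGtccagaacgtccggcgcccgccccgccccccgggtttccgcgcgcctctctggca
Cdk6 chr5:3343643-3343942: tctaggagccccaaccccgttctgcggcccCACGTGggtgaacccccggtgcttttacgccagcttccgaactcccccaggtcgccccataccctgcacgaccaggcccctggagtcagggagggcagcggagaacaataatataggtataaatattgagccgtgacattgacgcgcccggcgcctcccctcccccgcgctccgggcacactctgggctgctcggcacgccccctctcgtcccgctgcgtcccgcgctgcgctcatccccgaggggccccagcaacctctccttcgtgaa
Ccnd3 chr17:47504801-47505100: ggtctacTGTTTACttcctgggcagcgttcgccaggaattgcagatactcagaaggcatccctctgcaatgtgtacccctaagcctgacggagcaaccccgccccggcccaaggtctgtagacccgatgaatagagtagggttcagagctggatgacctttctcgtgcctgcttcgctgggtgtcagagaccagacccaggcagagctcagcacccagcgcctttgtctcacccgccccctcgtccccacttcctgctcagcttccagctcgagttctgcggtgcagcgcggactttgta

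The Cdk4 promoter held 4 copies of CACGTG, the E-box bound by MYC, and that of Cdk6 held 1. Of 32851 RefSeq promoter windows of this length 7.15% held at least 1 copy and 8 windows held 4 or more. GTAAACA was found in 3.65% of windows. A further annotated start of Ccnd3 at chr17:47593217-47593516 held neither motif. RefSeq entries were matched for 6 of the 10 genes (9 windows), and Ccnd1, Ccnd2, Cdkn1c and Rb1 were not matched. The windows of Cdkn1a held 1 MyoD-type E-box, CAGCTG (16.3% of all windows), those of Cdkn2c held 1 CACGTG, and that of Cdkn1b held neither. None of the 9 windows held the E2F words TTTCCCGC, TTTGGCGC or TTTCGCGC (1.84% of all windows) or the CRE TGACGTCA (1.79%). The Sp1 box GGGCGG, in 35.7% of windows, was in 6 of the 9 and is not marked in capitals. Motifs were searched on both strands and did not overlap in these windows. A match is a description of the letters only.

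Cdk4 had log2 values of 13.36, 13.46 and 13.50 on the insulin arrays and 13.34, 13.42 and 13.45 on the control arrays. By the gene value the groups overlapped almost fully. The change was 0.033 with a 95% interval from -0.13 to 0.19 (limma adjusted p = 0.798), so a rise the size of that of Ccnd2 lies outside the interval. Of its 10 probe sets 9 went up, by no more than 0.29, and none was called. The only one that went down (-0.071) is 1 of the 2 of middle brightness, which carry the gene value. The brightest changed by 0.12 with the insulin arrays above the controls (limma adjusted p = 0.411). The mean of its probe sets gave 0.13, also short of the threshold (limma adjusted p = 0.112). Myc, whose product acts on CACGTG, had log2 values of 11.30, 11.27 and 11.15 with insulin and 10.55, 10.59 and 10.57 without it, a rise of 0.67 ± 0.07 (SE, limma adjusted p = 0.00109). From its brightest probe set Myc stood at 0.50, short of the threshold (adjusted p = 0.0581).

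Cdk6 had log2 values of 10.40, 10.38 and 10.47 on the insulin arrays and 10.10, 10.15 and 10.24 on the control arrays. The insulin arrays lay above the controls, by a narrow margin between the lowest insulin and the highest control value. The rise was 0.25 ± 0.07 (SE), or 1.19-fold, and just passed (limma adjusted p = 0.0412). All 8 probe sets went up, by 0.11 to 0.51, without any of them being called alone. Leaving out an array ended the call for control 1 (adjusted p = 0.0812), control 2 (0.124), insulin 1 (0.0990), insulin 2 (0.0997) and insulin 3 (0.139). It was also lost with the median of the brighter probe sets (0.14, adjusted p = 0.211), after repeated quantile normalization (0.23, 0.0598), after median centring (0.23, 0.0520) and with no filter on dim genes (0.0750). The log2 difference Cdk4 minus Cdk6 shifted by -0.22 (exact permutation p = 0.1).

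Cdkn1a encodes p21, which muscle cells use to hold the cycle once they differentiate. In log2, Cdkn1a stood at 12.79, 12.77 and 12.79 with insulin and 12.91, 12.82 and 12.90 without it. The insulin arrays were all slightly lower, without overlap. The change was -0.093 with a 95% interval from -0.23 to 0.049, short of the threshold (limma adjusted p = 0.365). The probe sets ran from -0.16 to 0.33, and the one at 0.33 was the dimmest. No alternative setting brought Cdkn1a past the threshold.

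Cdkn1b encodes p27, an inhibitor that growth factors lower and that FoxO factors can induce. Its log2 values were 10.69, 10.72 and 10.58 on the insulin arrays and 10.91, 11.0 and 11.07 on the control arrays. The insulin cultures lay below the controls without overlap. The change was -0.33 ± 0.07 (SE), or 0.796-fold (limma adjusted p = 0.0215). It rests mainly on 1 of 7 probe sets, the one of middle brightness, which changed by -0.34, the most of the 7. The mean of the probe sets gave -0.12 (adjusted p = 0.390), the brighter ones -0.20 (0.101) and the brightest -0.045 (0.739). Leaving out control 2 (0.0716), insulin 1 (0.0641), insulin 2 (0.0546) or insulin 3 (0.0857) also ended the call.

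Cdkn1c encodes p57, an imprinted inhibitor that MYOD can induce in muscle cells. In log2, Cdkn1c stood at 8.95, 9.08 and 9.0 with insulin and 8.62, 8.75 and 8.72 without it. By its gene value the insulin cultures were higher with no overlap. The rise was 0.31 ± 0.07 (SE), or 1.24-fold (limma adjusted p = 0.0216). Its 6 probe sets did not agree: 4 went up, by as much as 0.39, and 2 went down. The brightest gave -0.16 (adjusted p = 0.340 in a fit of brightest probe sets), which turns the direction, and the mean of the probe sets gave 0.13 (0.198). Leaving out control 2 (0.0504), insulin 2 (0.0887) or insulin 3 (0.0729) ended the call. Myod1 itself had log2 values of 11.60, 11.48 and 11.43 with insulin and 12.12, 12.08 and 12.02 without it, a change of -0.57 ± 0.07 (SE).

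The CIP/KIP genes differed in what their gene values did. The log2 difference Cdkn1b minus Cdkn1c shifted by -0.64, Cdkn1a minus Cdkn1c by -0.41 and Cdkn1a minus Cdkn1b by 0.24 (exact permutation p = 0.1 each). With the brightest probe sets all 3 shifts turned sign, to 0.12, 0.089 and -0.028.

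Cdkn2c, encoding p18, had log2 values of 10.21, 10.28 and 10.30 with insulin and 9.88, 10.12 and 10.38 without it. The controls spread over a wider range than the insulin arrays and took them in. The change was 0.14 with a 95% interval from -0.13 to 0.41, short of the threshold (limma adjusted p = 0.486). Its brightest probe set changed by 0.019.

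Rb1 encodes the retinoblastoma protein, the main target of cyclin D kinases and a protein that keeps myotube nuclei out of the cycle. In log2, Rb1 stood at 10.92, 10.91 and 10.91 on the insulin arrays and 11.16, 11.32 and 11.24 on the control arrays. The insulin arrays lay close together and below every control. The change was -0.33 ± 0.07 (SE), or 0.798-fold (limma adjusted p = 0.0150). All 28 probe sets went down. Of the 27 past the filter, 15 had every insulin array below every control array, as had 12.6% of all tested probe sets. Of the same 27, 2 were called alone, where 1.71% of all tested probe sets fell. In 4 probe sets the SD within a group was over 1, and 1 of these had 10.02, 4.21 and 4.42 on the insulin arrays and 9.85, 8.70 and 10.89 on the control arrays. Without probe sets of that spread, a setting added after seeing the data, the 24 others ran from -0.51 to -0.11 and the gene changed by -0.40 (adjusted p = 0.00623). With the mean of all probe sets it was -0.52 (0.0228), and the brightest alone gave -0.17 (0.213). Leaving out control 2 (0.0631), insulin 1 (0.0534), insulin 2 (0.0611) or insulin 3 (0.0587) ended the call.

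**Figure D3:**
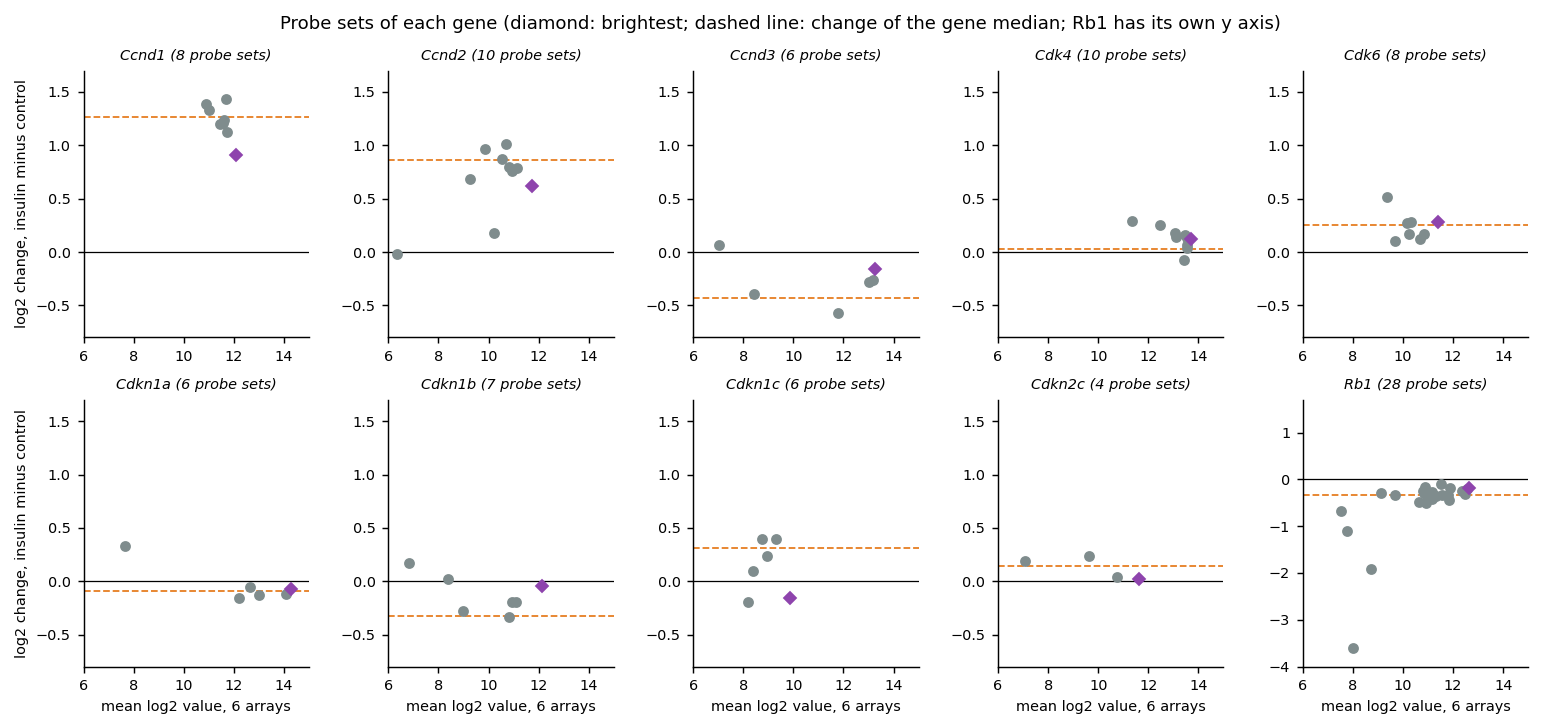
Change of every probe set (insulin minus control, log2) against its mean log2 value over the 6 arrays, 1 panel per gene; the diamond is the brightest probe set and the dashed line the change of the gene value. The 8 probe sets of Ccnd1 all lie above 0, from 0.91 to 1.43, and those of Cdkn1c lie on both sides of 0. Rb1 reaches -3.60 in 1 dim probe set on an axis of its own.

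Across the 10 genes 46 probe sets went up and 47 went down. Of the 88 past the filter, 15 rose and 2 fell by the test on single probe sets, which called 5.66% of all those tested. The 15 belonged to Ccnd1 and Ccnd2 and the 2 to Rb1. A gene value here is the median of its probe sets on each array, so the probe sets of middle brightness carry it. A test of whether a gene's probe sets moved by different amounts called none of the 10 genes, with Ccnd2 nearest (limma diffSplice adjusted p = 0.0510), and called 3.42% of 14643 genes. That test called too many genes on simulated data, so no call was read from it.

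**Figure D4:**
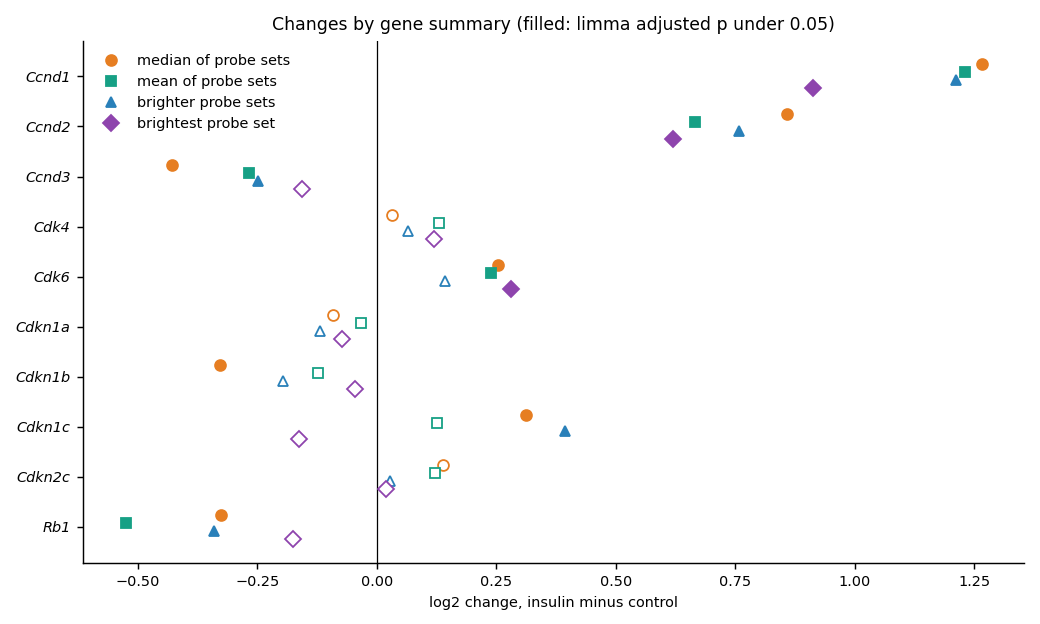
Log2 change of each gene by 4 ways of summarising its probe sets, as the median (circles), the mean (squares), the median of the brighter ones (triangles) and the brightest one (diamonds); filled symbols had a limma adjusted p under 0.05. Ccnd1 and Ccnd2 are filled in all 4, Cdkn1b only as the median, and Cdkn1c changes side with its brightest probe set.

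Of 25 tested genes that act beside the D cyclins at the G1/S step 5 rose, none fell and 20 did not pass, with a median of 0.083, where 9.56% of all tested genes rose and 6.35% fell. The count was 3 without control 1, control 2 or any 1 insulin array, and 9 with the mean of probe sets. Ccne1 (cyclin E1) had log2 values of 10.28, 10.48 and 10.38 with insulin and 9.98, 9.93 and 10.03 without it, a rise of 0.40 ± 0.07 (SE, limma adjusted p = 0.0100). E2f8, an atypical repressor of the E2F family, rose by 0.39 and Cks1b, a small CDK subunit that helps p27 turnover, by 0.36. Skp2, the F-box protein of that turnover, rose by 0.29, and Rbl1 (p107), the pocket protein of cycling cells, by 0.30 (limma adjusted p = 0.0255). Rbl1 missed the threshold when control 1 (0.0508), control 2 (0.0527), insulin 1 (0.0609), insulin 2 (0.0784) or insulin 3 (0.0986) was left out, and Skp2 when any 1 of the 6 arrays was (0.0522 to 0.101). With the brightest probe set neither E2f8 (0.20, adjusted p = 0.111) nor Rbl1 (0.17, 0.168) passed.

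Ccne2, Cdk2, E2f1 and Rbl2 did not pass. Ccne2 (cyclin E2) stood at 0.61 ± 0.31 (SE, limma adjusted p = 0.229) and passed with the mean of its probe sets (0.56, adjusted p = 0.0353) or its brighter ones (1.00, 0.00791). E2f1, the activating E2F, stood at 0.14 (0.251) and passed with the mean of its probe sets (0.26, 0.00811). Cdk2 changed by -0.052 (0.727) and Rbl2 (p130), the pocket protein of resting cells, by -0.082 (0.577).

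Of 15 tested S-phase entry genes under E2F control 12 rose and none fell, with a median of 0.56. Among all tested genes 9.56% rose and 6.35% fell. Leaving out 1 array gave between 9 rises (without insulin 1) and 12 (without control 3) in this list. The 3 largest changes were in subunits of the replicative helicase: Mcm3 rose by 0.76, Mcm2 by 0.69 and Mcm5 by 0.66. Mcm3 had log2 values of 11.23, 11.32 and 11.41 with insulin and 10.45, 10.66 and 10.58 without it. All 9 tested mitotic markers rose, with a median of 0.50. Mki67 (Ki-67) rose by 0.92, the checkpoint kinase gene Bub1 by 0.83 and Foxm1, a transcription factor of dividing cells, by 0.74. Without insulin 2 or without insulin 3 the count of mitotic markers was 7.

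Targets of p53, which also controls Cdkn1a, counted 1 rise and 1 fall among 13 tested genes, with a median of -0.11. These counts are near the shares of all tested genes, where 9.56% rose and 6.35% fell. Sesn2 (sestrin 2) rose by 1.03 and Sesn1 fell by 0.48. Of 14 tested regulators known to act on the 10 genes 2 rose and 4 fell. Fosl1, an AP-1 subunit that can drive cyclin D1, rose by 0.79, and Myc rose as given above. Those that fell were Myod1, the differentiation factor genes Myog (-0.27) and Mef2c (-0.39), and Foxo3 (-0.35), a FoxO factor that can drive Cdkn1b. Among the listed regulators that did not pass, Jun stood at -0.14, Foxo1 at -0.20 and Foxo4 at -0.28. Whether any of these regulators acted on the 10 genes in these cultures was not tested. The count of falls was 1 without insulin 3, 2 without control 2 or insulin 1, and 8 with the mean of probe sets, and Myog missed the threshold without control 2 or any 1 insulin array (adjusted p = 0.0632 to 0.0996). Mef2c missed it without insulin 1 (0.0515) or insulin 3 (0.0514), and Foxo3 without control 2 (0.0639) or insulin 3 (0.0611). With its brightest probe set Myod1 stood at -0.31 (adjusted p = 0.0748).

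**Figure D5:**
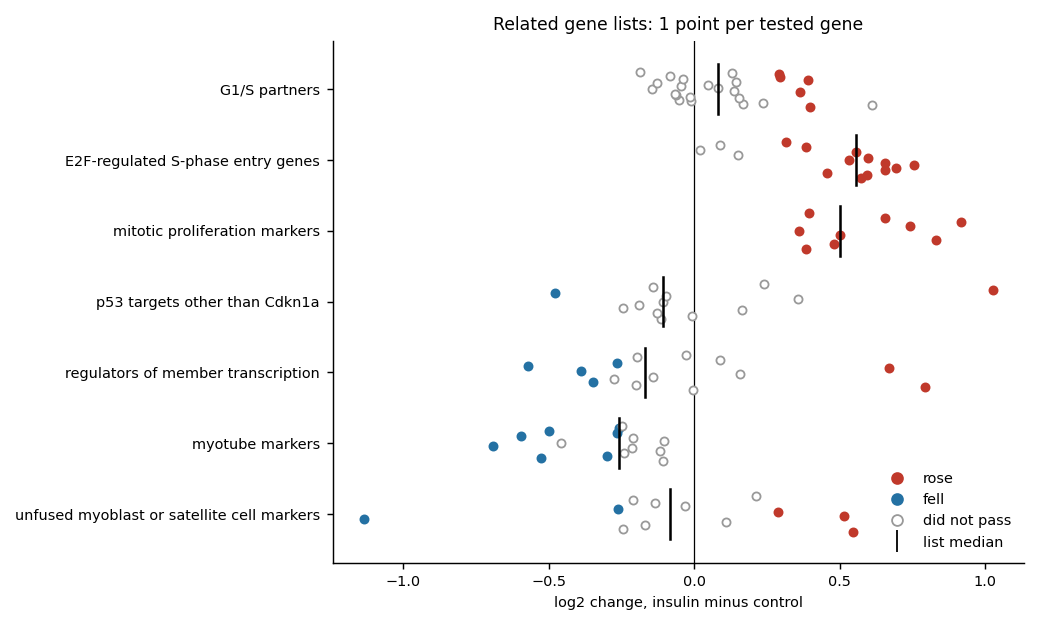
Log2 change, insulin minus control, of each tested gene in 5 lists around the D cyclins and in 2 marker lists; filled red points rose, filled blue points fell, open points did not pass, and black bars are list medians. The bars of the S-phase and mitotic lists stand at 0.56 and 0.50, that of the G1/S partners at 0.083 and that of the myotube markers at -0.26.

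Markers of myotubes and of unfused muscle cells were read beside these results. Of 15 myotube markers 7 fell and none rose (median -0.26), where 6.35% of all tested genes fell and 9.56% rose. Their mean log2 value was 12.15 to 12.19 on insulin arrays and 12.39 to 12.57 on control arrays, with the groups apart. The count of falls was 3 without control 2, 2 without insulin 1, insulin 2 or insulin 3 or with brightest probe sets, and 12 with the mean of probe sets. Myh7 (slow myosin) fell by 0.69, Mymx (myomixer, Gm7325 in the annotation) by 0.60 and Actn2 by 0.53. Myh7 missed the threshold without insulin 1 (limma adjusted p = 0.0519), insulin 2 (0.0579) or insulin 3 (0.0530), and with its brightest probe set (0.0668). Among 12 tested markers of unfused myoblasts or satellite cells 3 rose and 2 fell (median -0.083), with a mean of 10.13 to 10.19 on insulin arrays and 10.14 to 10.22 on control arrays, which overlap. Cd34 rose by 0.55 and Met by 0.51, while Id3, an inhibitor of MYOD that is high in dividing myoblasts, fell by 1.13. The part of either cell population in the changes of the D cyclins was not tested.

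Among markers of cell types other than muscle, most endothelial and leukocyte ones were dim, while the adipocyte and fibroblast lists were mixed. The filter removed 3 of 4 endothelial markers, 4 of 5 leukocyte markers, 3 of 6 adipocyte markers and 3 of 8 fibroblast markers. By its definition it removes 30% of all genes. Means over all listed genes were 6.57 to 6.65 on insulin arrays and 6.41 to 6.71 on control arrays for endothelial genes, and 6.56 to 6.64 and 6.57 to 6.66 for leukocyte genes. For fibroblast genes they were 8.33 to 8.38 on insulin arrays and 8.39 to 8.5 on control arrays, where Dcn (decorin) fell by 0.57, and their part in the results was not tested. Adipocyte genes lay at 7.28 to 7.43 on insulin arrays and 7.28 to 7.52 on control arrays.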

How the data were processed

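RNA from 3 insulin and 3 control cultures was amplified from 25 ng and labelled with biotin, per the labels' protocols. Per the submitters' processing notes, which give no version, the authors used RMA, and the deposited table holds log2 values for each probe set on each array. The base was taken as 2 from the range of 3.15 to 14.6, and the sources used here do not give the genome build of the array. Array medians lay between 8.79 and 8.82. RMA evens out the arrays, so changes are relative to the other transcripts, and no detection calls were used, so signal over background was not judged. The number of arrays limits the precision.

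Gene symbols of probe sets came from the platform's annotation in GEO (212097 with 1 symbol, 4475 with several, 25004 with none). A gene's value was the median of its probe sets with 1 symbol. Genes with a mean under the 30th percentile (7.05) were left out, as were probe sets under their own (7.57). Insulin minus control was fitted across all genes, and across all probe sets, with limma 3.58.1 (lmFit, eBayes, R 4.3.3), two-sided, without covariates, with Benjamini-Hochberg adjustment over all tested features and a threshold of 0.05. Adjusted p-values in the text come from these fits or their named alternatives. The scripts were tested on simulated data. Pairs of genes were compared by exact permutation tests.

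The 10 genes, the lists and the tests were chosen with earlier results of these data known. Genes named from a list are the 3 called ones with the largest change, plus Ccne1, Ccne2, Cdk2, Rbl1, Rbl2 and E2f1. Skp2, Myog, Mef2c, Foxo3, Jun, Foxo1 and Foxo4 were added after their values were seen. Ccnb1, Bax and Trp53 were among the listed genes not analysed here, and some results that the rule names are not reported here. The alternatives were other normalizations, filters, variance priors, array weights, probe-set summaries, a replicate block and leaving out each array.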

Additional observations from a re-analysis of the deposited data

How the results depend on the processing

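Ccnd1 and Ccnd2 kept direction and call in all 18 alternatives (0.91 to 1.34 and 0.62 to 0.95), and Ccnd3 in 17 of 18. Cdk4, Cdkn1a and Cdkn2c passed in none, and Rb1, Cdkn1c, Cdkn1b and Cdk6 passed in 13, 12, 10 and 8 of 18. These alternatives share the same arrays and some were added after seeing the data, so the counts are not independent checks. With the brightest probe set Ccnd3 was at -0.16, Rb1 at -0.17, Cdkn1b at -0.045 and Cdkn1c at -0.16, the only sign turned among the 10 genes. Cdkn1b did not pass with the brighter probe sets (-0.20), the mean (-0.12) or, added after seeing the data, the mean of probe sets past the filter (-0.17), nor Cdkn1c with either mean (0.13 each). Cdk6 did not pass after repeated quantile normalization (0.23), median centring (0.23), no filter (0.25) or with brighter probe sets (0.14). Without 1 array each, changes were 0.22 to 0.29 for Cdk6, -0.37 to -0.29 for Cdkn1b, 0.27 to 0.34 for Cdkn1c and -0.37 to -0.29 for Rb1. The cause of these losses was not tested.

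Over all genes 2274 were called (1366 rose, 908 fell). Array quality weights called 5007 (2608 and 2399), the mean of probe sets 3436 with 1482 falls, and the mean past the filter 1443 falls. Without 1 array the counts were 1046 to 2446, 663 to 1482 and 383 to 964, where the loss of an array also lowers the number of samples. Leaving out control 2 gave 1237, and leaving out insulin 1, 2 or 3 gave 1267, 1046 or 1114. Over probe sets 8410 were called (5864 and 2546), 2738 (2069 and 669) with no filter and 3966 falls with the 50th percentile filter. Without 1 array these were 555 to 6216, 424 to 4251 and 131 to 1965. Scaling moved the median of all genes by under 0.1.

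The replicate numbers were not shown to pair the samples. Deviations of same-numbered arrays correlated at 0.025, 0.19 and -0.00036, and not every array correlated best with its own number. The 0.19, of insulin 2 with control 2, was the highest between any insulin and any control array. With 3 arrays per group such correlations cannot exclude pairing. With the replicate block 1970 genes and 2364 probe sets (1756 and 608) were called, Cdk6 missed the threshold (0.25, limma adjusted p = 0.0546), and no other of the 10 genes changed its call.

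The diffSplice test called too many genes on simulated data, so its values below are not read as calls. It called 166 to 904 genes without 1 array. Its adjusted p for Ccnd2 was 0.0452 with the 50th percentile filter and 0.0121 with the block. It was 0.0481 for Cdkn1c with that filter and 0.0139 for Rb1 with the block. Without 1 array it ran from 0.0254 to 0.490 for Ccnd2 and from 6.63e-08 to 1.00 for Rb1. The lowest value for Rb1 came without insulin 1. On that array 1 Rb1 probe set of wide spread read 10.02, against 4.21 and 4.42 on insulin 2 and insulin 3. Among pairs, the mean, brighter and brightest probe sets gave 1.5, 1.46 and 1.07 for Ccnd1 minus Ccnd3, 0.93, 1.01 and 0.78 for Ccnd2 minus Ccnd3, and -0.11, -0.076 and -0.16 for Cdk4 minus Cdk6. In that order they gave 0.090, 0.079 and -0.028 for Cdkn1a minus Cdkn1b and -0.16, -0.51 and 0.089 for Cdkn1a minus Cdkn1c. Cdkn1b minus Cdkn1c was -0.25 with the mean and 0.12 with the brightest.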

Other observations

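Among the genes whose profile over the 6 arrays lay nearest to that of Ccnd1, by root mean square difference of log2 values taken from the control mean, were Pck2, a mitochondrial carboxykinase (0.035), and Acsbg1, an acyl-CoA synthetase (0.11). They rose by 1.29 and 1.16 on the log2 scale. Nearest to Ccnd3 were 2610301F02Rik (Ccdc141) at 0.021, Ppp1r14c, a phosphatase inhibitor, at 0.031 and Porcn, which acylates WNT proteins, at 0.033. They changed by -0.44, -0.40 and -0.44. The measure picks genes whose change is close to that of Ccnd1 or Ccnd3, so this likeness is set by the choice. Shared control was not tested.

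On the adipocyte list, the genes of both adipogenic transcription factors changed, in opposite directions. Cebpa had log2 values of 9.32, 9.39 and 9.38 on insulin arrays and 10.12, 10.15 and 10.07 on control arrays, a change of -0.75 ± 0.06 (SE, limma adjusted p = 4.95e-04). Pparg had 9.86, 9.79 and 9.71 on insulin arrays and 9.01, 9.09 and 9.30 on control arrays, a change of 0.65 ± 0.09 (limma adjusted p = 0.00316), which was 0.091 with its brighter probe sets (adjusted p = 0.50).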
